A study of Arabidopsis thaliana with 12 samples.

Results

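The comparison described here is between axenic (AX) Arabidopsis thaliana plants that received the autoclaved slurry of 2 different soils. AX-MSU plants were mock-inoculated with the autoclaved slurry of an agricultural soil from Michigan, and AX-Malaka plants with the autoclaved slurry of a grassland soil from Iowa, which some sample descriptions call Laurel. The libraries were chosen by their labels alone, and they are 6 of the 12 libraries of the series, 3 in each of these groups. The other 6 are 3 libraries of HO-MSU and 3 of HO-Malaka plants (holoxenic, HO), which received the live slurry of the same soils. All 4 groups were Col-0 plants with no genetic alteration, grown in FlowPots, which are peat-filled pots flushed and sterilised before inoculation, and harvested as whole rosettes at 21 days of age. Each library came from a pool of 8 rosettes out of 4 FlowPots that shared a growth box, so p-values measure the spread between such pools, and the labels do not say which pools of a group shared a box or which were handled together.

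Autoclaving kills the microorganisms of a slurry and leaves its mineral salts, soil organic matter and the remains of the microorganisms. AX-MSU and AX-Malaka plants therefore differ in what the sterile input carried and in nothing else that the labels name. Rosette growth at this age rests on the loosening and renewal of primary cell walls, in which xyloglucan, pectin, expansins and secreted glycoproteins take part, and it is tied to the sugar status of the leaf. Jasmonate, a lipid-derived hormone made in chloroplasts, restrains growth and induces storage and defence proteins and pigments of the flavonoid pathway.

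Reads had been counted on 33610 genes, and totals ran from 13229393 to 15957495 counts in AX-MSU libraries and from 10211008 to 16236426 in AX-Malaka libraries. Chloroplast genes took 47.8% to 53.3% of the counts in AX-MSU and 45.0% to 49.4% in AX-Malaka libraries, and nuclear ribosomal RNA genes took 11.1% to 16.1% and 13.1% to 20.4% (two-sided exact permutation test, p = 0.3 for each, where 0.1 is the smallest p that 3 against 3 libraries allow). HO-Malaka replicate 3 had counts on 25023 genes, against at most 22294 in any other library, and HO-Malaka replicate 2 had the highest share of ribosomal RNA, 21.8%. Markers of the rosette leaf, such as RBCS1A and CAB1, had a summed level of 15300 to 16300 CPM in AX-MSU and 15600 to 16500 CPM in AX-Malaka plants, where CPM are counts per 1000000 of a library's normalised size. Of 8 root markers, 6 were too low to be tested, and the list summed to between 119 and 139 CPM in AX-MSU and between 109 and 130 CPM in AX-Malaka plants. Nearly all of that sum was PYK10, and IRT1 and EXPA7 had no count in either group. In whole rosettes, fewer cells of a type and less RNA per cell cannot be told apart.

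A filter on low counts left 17588 genes, 17317 of them nuclear, and each was tested for a difference by the quasi-likelihood F test in edgeR. Here log2FC is the log2 of AX-MSU over AX-Malaka, and a gene is called changed where its Benjamini-Hochberg adjusted p (FDR) was under 0.05. Genes that also had a |log2FC| of at least 1, a 2-fold difference, are named DEGs. On this basis 47 genes were higher in AX-MSU plants and 67 were lower, 114 in all or 0.648% of the genes tested (0.267% higher and 0.381% lower). All 114 are nuclear. Of these, 11 were DEGs higher in AX-MSU (0.0625% of the genes tested) and 12 were DEGs lower in AX-MSU (0.0682%). At each of the 114 the AX-MSU libraries did not overlap the AX-Malaka libraries. Over all genes tested, AX-MSU lay wholly above AX-Malaka at 7.35% and wholly below at 7.52%. The median log2FC of all genes tested was 0.0022.

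These counts depended on which libraries were included. Without AX-MSU replicate 2 they were 7 higher and 18 lower, without replicate 1 they were 27 and 37, and without replicate 3 they were 47 and 60. Without AX-Malaka replicate 1, 2 or 3 they were 17 and 32, 14 and 46, and 12 and 27. Leaving out a library also makes its group smaller, and the part of group size was not tested. Without HO-Malaka replicate 1 or 2 they were 79 and 111, and 72 and 98. HO libraries enter this contrast through the filter on low counts, the scaling and the shared estimate of the spread. The genes tested numbered 17788 and 18090 in these runs. The 11 DEGs that were higher became 2 without AX-MSU replicate 2, 5 without AX-Malaka replicate 1 and 6 without AX-Malaka replicate 2 or 3, and the 12 that were lower became 6 without AX-MSU replicate 2. With the 2-fold limit made part of the tested hypothesis, a single gene, GRP9, stayed called. Scaled to total counts alone, 7 genes were higher and 16 lower. The genes named by rule are therefore given with the alternatives under which their call was lost, out of at most 20 that keep the same threshold. For the other called genes mentioned below these alternatives are not given, so their calls cannot be taken as stable.

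Of the 12 DEGs that were lower in AX-MSU plants, 5 encode proteins of the cell wall or secreted into it. They were grouped in this way after their values were seen. The share of such genes among all genes tested was not counted, so nothing is read from this number. PHI-1, EXO and EXL5 belong to the EXORDIUM family of secreted proteins, of which EXO itself is needed for brassinosteroid-promoted leaf growth. EXLA1 is an expansin-like protein, and TCH4 is a xyloglucan endotransglucosylase/hydrolase, an enzyme that cuts and rejoins xyloglucan chains.

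PHI-1 (AT1G35140, chromosome 1, 12851983 to 12853235) had 6.02, 4.01 and 6.06 CPM in AX-MSU plants, against 21.6, 11.7 and 22.4 CPM in AX-Malaka plants. Its log2FC was -1.77 (standard error 0.20, adjusted p = 2.62e-06 from edgeR), the most negative of the called genes. EXO (AT4G08950, chromosome 4, 5740219 to 5741591) had 9.48, 11.0 and 13.7 CPM in AX-MSU plants, against 39.4, 25.9 and 29.9 CPM in AX-Malaka plants (log2FC -1.48, standard error 0.15, adjusted p = 1.11e-06 from edgeR). For EXO, all of the HO libraries lay within 9.87 to 13.9 CPM, close to the AX-MSU libraries, so that AX-Malaka was the group that stood apart. EXL5 (AT2G17230, chromosome 2, 7494536 to 7496292) had 22.5, 17.61 and 30.2 CPM in AX-MSU plants, against 58.1, 45.4 and 56.4 CPM in AX-Malaka plants (log2FC -1.18, adjusted p = 2.62e-06 from edgeR). It showed the same arrangement, with HO libraries between 21.6 and 26.0 CPM. PHI-1, EXO and EXL5 kept their calls under all 20 alternatives.

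The family was looked at as a whole after these values were seen. It has 8 annotated members, and 6 were tested. All 6 had a negative log2FC, between -1.77 and -0.36 with a median of -0.85. The call was made at 4, against 0.381% of all genes tested that were called lower. The fourth was EXL3 at -0.52 (adjusted p = 0.00937 from edgeR). EXL2, at -0.44, and EXL4, at -0.36, did not pass (adjusted p = 0.104 and 0.773). In HO plants the 6 had a median log2FC of -0.07 for MSU over Malaka.

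EXLA1 (AT3G45970, chromosome 3, 16896166 to 16897308) had 4.89, 4.42 and 8.88 CPM in AX-MSU plants, against 15.2, 12.2 and 11.9 CPM in AX-Malaka plants. Its log2FC was -1.12 (standard error 0.19, adjusted p = 0.00233 from edgeR), and the call was lost without AX-MSU replicate 2 (adjusted p = 0.0566). TCH4 (AT5G57560, chromosome 5, 23307006 to 23308680), a gene known for its response to touch, had 24.6, 14.98 and 23.9 CPM in AX-MSU plants, against 49.9, 37.0 and 49.2 CPM in AX-Malaka plants (log2FC -1.09, adjusted p = 1.63e-05 from edgeR). In both genes the AX-Malaka libraries were the highest 3 of the 12. TCH4 is the only one of 14 tested genes on a list of rapid stress and handling genes that passed, against 0.648% of all genes. The 14 ran from -1.09 to 2.64, with 8 negative, 6 positive and a median of -0.09. The other members of that list include WRKY40 at -0.16, ZAT10 at -0.61 and TCH3 at 0.02, and the part of the other members in the result was not tested.

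Further wall genes were called in both directions, and the ones named were picked out after their values were seen, from no fixed list. Higher in AX-MSU plants were BGAL4, a beta-galactosidase (log2FC 1.08), GATL3, a galacturonosyltransferase-like protein (0.65), and AT4G24780, a pectin lyase-like protein (0.55, adjusted p = 0.00956 from edgeR). The following were lower. LRX3, a leucine-rich repeat extensin, averaged 323 ± 69.0 CPM in AX-MSU and 502 ± 45.3 CPM in AX-Malaka plants (SD, n = 3 each, log2FC -0.64). THE1, the receptor kinase THESEUS1 that monitors the wall, averaged 23.4 ± 1.83 CPM in AX-MSU and 35.5 ± 4.75 CPM in AX-Malaka plants (SD, n = 3 each, log2FC -0.59). CSLC04, a synthase of the xyloglucan backbone, had a log2FC of -0.54, and GAE1, an epimerase that supplies galacturonic acid for pectin, had one of -0.49. AGP17 and AGP18, arabinogalactan proteins at the cell surface, had a log2FC of -0.77 and -0.57. At LRX3, THE1, CSLC04, GAE1, AGP17 and AGP18 all AX-Malaka libraries again lay above the other 9. Among the 18 tested genes annotated as arabinogalactan proteins, 15 had a negative log2FC and the median was -0.38. Of these 18, 2 passed, against 0.381% of all genes tested that were called lower. Among 17 tested xyloglucan endotransglucosylase/hydrolases, 13 were negative with a median of -0.16, and TCH4 was the sole member to pass.

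**Figure D1:**
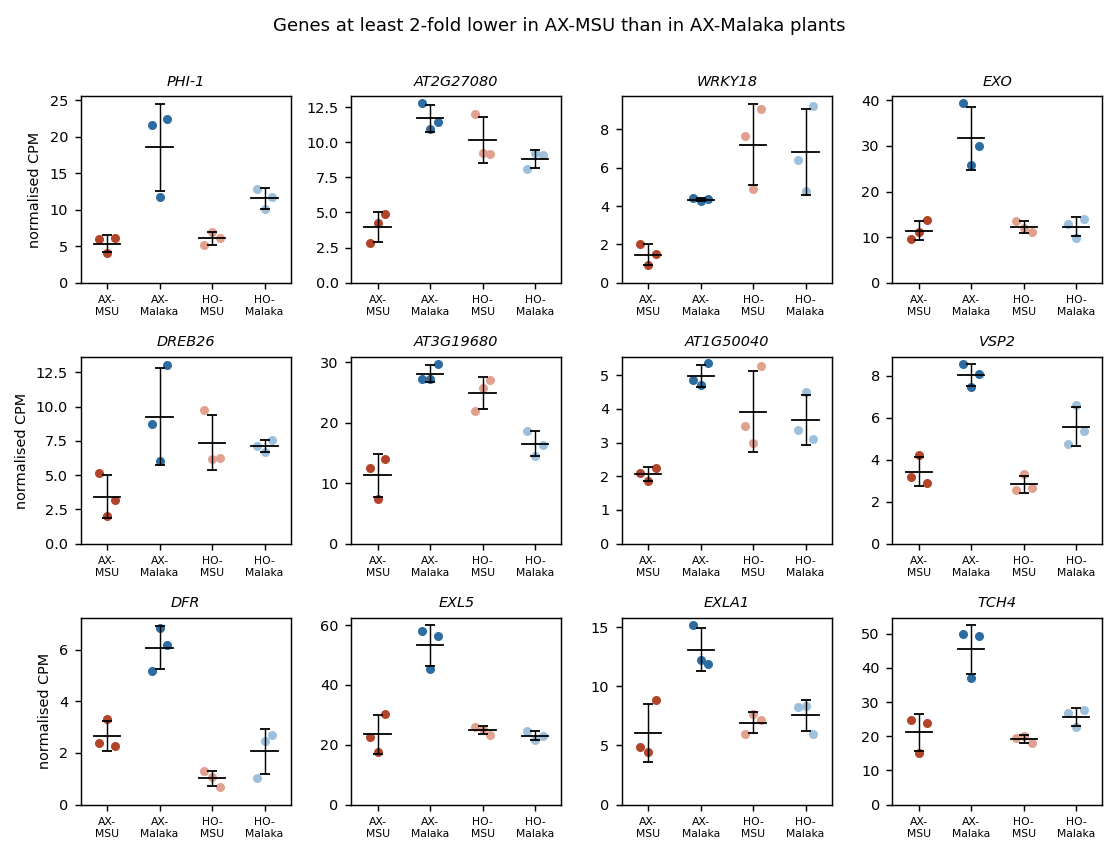
Normalised CPM of the 12 genes that were at least 2-fold lower in AX-MSU than in AX-Malaka plants, for each library of the 4 groups. Points are libraries, horizontal bars group means and error bars SD (n = 3). At EXO, EXL5, EXLA1, TCH4, VSP2 and DFR the AX-Malaka libraries lie above the other 9, while at AT2G27080, WRKY18, DREB26 and AT1G50040 the AX-MSU libraries lie below the other 9.

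Several DEGs showed another arrangement, with the AX-MSU libraries below the other 9. AT2G27080, annotated as a late embryogenesis abundant hydroxyproline-rich glycoprotein, had 2.80, 4.28 and 4.86 CPM in AX-MSU plants, against 12.8, 10.9 and 11.4 CPM in AX-Malaka plants (log2FC -1.57, standard error 0.18, adjusted p = 2.62e-06 from edgeR). The HO libraries had 8.08 to 12.0 CPM, as the AX-Malaka libraries did. WRKY18, a transcription factor of defence signalling, had 2.03, 0.898 and 1.48 CPM in AX-MSU plants, against 4.39, 4.28 and 4.35 CPM in AX-Malaka plants (log2FC -1.54, adjusted p = 0.00764 from edgeR). Its HO libraries had 4.80 to 9.25 CPM, above those of both AX groups. DREB26, a transcription factor of the AP2/ERF class, averaged 3.43 ± 1.58 CPM in AX-MSU and 9.26 ± 3.53 CPM in AX-Malaka plants (SD, n = 3 each, log2FC -1.38, adjusted p = 0.00643 from edgeR). Without AX-MSU replicate 2 the calls of WRKY18 (adjusted p = 0.0993) and of DREB26 were lost, and that of DREB26 was also lost without AX-Malaka replicate 3 (adjusted p = 0.11).

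The remaining pair of DEGs in this arrangement encode proteins with a domain of unknown function, DUF1005. AT3G19680 (chromosome 3, 6840281 to 6842320) had 12.5, 7.32 and 14.0 CPM in AX-MSU plants, against 27.2, 27.3 and 29.7 CPM in AX-Malaka plants (log2FC -1.31, standard error 0.15, adjusted p = 3.01e-06 from edgeR). AT1G50040 had 2.09, 1.86 and 2.25 CPM in AX-MSU plants, against 4.87, 4.72 and 5.36 CPM in AX-Malaka plants (log2FC -1.26, adjusted p = 0.00796 from edgeR). Its call was lost without AX-MSU replicate 2 or AX-Malaka replicate 3. All 5 annotated DUF1005 genes were tested, and all had a negative log2FC with a median of -0.49. AT1G10020 was the third to pass, at -0.49 (adjusted p = 0.0443 from edgeR), against 0.381% of all genes tested that were called lower. This family, too, was singled out after its values were seen.

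The 250 bases before the annotated start of AT3G19680, AT1G10020 and AT2G27080 are shown because these genes were called in the same direction and their windows hold letters counted below. The letters searched on either strand were TTGACC, 1 form of the W-box bound by WRKY transcription factors. The other form, TTGACT, was not searched, so these are not full counts of W-boxes. The capitals mark TTGACC or, in AT1G10020, the P1BS letters GNATATNC. The sequences were read from the RefSeq genome TAIR10.1 on the strand of each gene, 5′ to 3′, at chr3:6840031-6840280 (plus), chr1:3272111-3272360 (minus) and chr2:11563683-11563932 (plus).
AT3G19680: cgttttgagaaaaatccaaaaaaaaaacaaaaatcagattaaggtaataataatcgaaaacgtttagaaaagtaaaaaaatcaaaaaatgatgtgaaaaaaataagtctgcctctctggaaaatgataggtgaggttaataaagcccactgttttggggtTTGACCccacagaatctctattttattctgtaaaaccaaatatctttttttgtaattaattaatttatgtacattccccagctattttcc
AT1G10020: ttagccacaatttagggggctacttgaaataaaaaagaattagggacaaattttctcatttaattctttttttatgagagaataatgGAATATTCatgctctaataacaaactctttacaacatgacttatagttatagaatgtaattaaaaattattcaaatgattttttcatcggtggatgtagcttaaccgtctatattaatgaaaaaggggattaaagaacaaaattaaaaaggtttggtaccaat
AT2G27080: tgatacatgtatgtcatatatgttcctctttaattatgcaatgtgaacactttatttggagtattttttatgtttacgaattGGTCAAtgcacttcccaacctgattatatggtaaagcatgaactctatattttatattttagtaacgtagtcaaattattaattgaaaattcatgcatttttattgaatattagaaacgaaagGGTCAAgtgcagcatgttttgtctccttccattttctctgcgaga
Over the 67 genes that were lower in AX-MSU plants, 14 promoters held TTGACC (20.9%), against 11.9% of the 16745 promoters of tested protein-coding nuclear genes and 1 of the 46 protein-coding genes that were higher (2.17%). GNATATNC stood in 8 of the 67 (11.9%), against 5.32% of all. The G-box CACGTG was found in 8.96% of the promoters of lower genes and 6.52% of those of higher genes, against 7.36% of all. ACGTGG, which can overlap CACGTG, was found in 8.96% and 8.70%, against 8.82%. The letters AAAATATCT stood in 4.48% of lower and 6.52% of higher genes against 2.47% of all, TGACG in 14.9% and 21.7% against 19.3%, CCGACC in 4.48% and 0 of 46 against 3.57%, GCCGCC in 1.49% and 2.17% against 1.95%, and AAACCCTA in 0 of 67 and 2.17% against 3.62%. A match says only that the letters stand in this window.

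Jasmonate genes were lower in AX-MSU plants as far as they passed the test. Of the 20 genes on the list, 16 were tested and 3 were called, all lower, against 0.648% of all genes. All 16 had a negative log2FC, with a median of -0.54 and a range of -1.64 to -0.05. At 11 of the 16 all AX-MSU libraries lay below all AX-Malaka libraries, against 7.52% of all genes. In HO plants 14 of the 16 had a negative log2FC for MSU over Malaka, with a median of -0.18.

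LOX2 (AT3G45140, chromosome 3, 16525245 to 16529352), the chloroplast lipoxygenase that starts jasmonate synthesis in leaves, had 98.8, 78.7 and 83.3 CPM in AX-MSU plants, against 144, 134 and 146 CPM in AX-Malaka plants. Its log2FC was -0.70 (standard error 0.12, adjusted p = 0.00146 from edgeR), a call that was lost with total counts alone (adjusted p = 0.058). VSP2, a vegetative storage protein induced by jasmonate, had 3.16, 4.21 and 2.89 CPM in AX-MSU plants, against 8.55, 7.49 and 8.08 CPM in AX-Malaka plants (log2FC -1.23, adjusted p = 0.000794 from edgeR). At both genes the AX-Malaka libraries were the highest of all 12. JAZ9 (TIFY7), a repressor of jasmonate responses, was lower as well (log2FC -0.51, adjusted p = 0.0416 from edgeR), a call that was lost under 10 of the 20 alternatives. MYC2, the main transcription factor of the pathway, had 8.41, 7.39 and 9.02 CPM in AX-MSU plants, against 12.7, 13.3 and 12.1 CPM in AX-Malaka plants, and its log2FC of -0.62 did not pass (adjusted p = 0.0723 from edgeR). The biosynthetic genes AOS, at -0.17, and AOC2, at -0.37, did not pass either. The number of called members lay between 1, with total counts, and 4 across the alternatives, and the median between -0.59 and -0.41.

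The flavonoid and anthocyanin list went the same way. Of 17 genes, 11 were tested, 10 had a negative log2FC and the median was -0.52. Of the 11, 2 passed, both lower in AX-MSU plants, against 0.648% of all genes tested. DFR, the dihydroflavonol reductase at the entry to anthocyanins, had 2.39, 3.31 and 2.25 CPM in AX-MSU plants, against 5.19, 6.86 and 6.16 CPM in AX-Malaka plants (log2FC -1.20, standard error 0.27, adjusted p = 0.0277 from edgeR). Chalcone synthase (TT4), the first enzyme of the pathway, had 69.1, 57.2 and 65.2 CPM in AX-MSU plants, against 96.2, 93.2 and 83.5 CPM in AX-Malaka plants (log2FC -0.51, adjusted p = 0.0181 from edgeR). LDOX, FLS1 and TT19, at -1.11, -0.52 and -1.53, did not pass. DFR lost its call without each AX library in turn and with total counts, up to an adjusted p of 0.176. TT4 lost its call with total counts and without AX-MSU replicate 2 or 3 or AX-Malaka replicate 1 or 2. In HO plants TT4 was also lower with MSU than with Malaka (log2FC -0.70, adjusted p = 0.00109 from edgeR), and DFR had a log2FC of -0.95 (adjusted p = 0.333). Of the 11 tested genes, 9 had a negative log2FC in HO plants, with a median of -0.47, so the list was shifted there as well.

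Genes induced by darkness and sugar shortage were higher in AX-MSU plants where they passed. Of 15 genes on the sugar starvation list, 13 were tested, 12 had a positive log2FC and the median was 0.37. SEN1, SEN5 and TPS9 were called, against 0.648% of all genes tested. At 8 of the 13 all AX-MSU libraries lay above all AX-Malaka libraries, against 7.35% of all genes. In HO plants 11 of the 13 had a positive log2FC for MSU over Malaka, with a median of 0.09.

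SEN1 (AT4G35770, chromosome 4, 16944878 to 16946266), a rhodanese-domain protein known from dark-treated and senescing leaves, had 66.0, 66.1 and 48.7 CPM in AX-MSU plants, against 23.2, 28.3 and 26.2 CPM in AX-Malaka plants. Its log2FC was 1.22 (standard error 0.12, adjusted p = 1.11e-06 from edgeR), and the call was kept under all 20 alternatives. The HO libraries had 28.1 to 41.3 CPM, so that the AX-MSU libraries were the highest 3 of the 12. SEN5 (AT3G15450) averaged 100.4 ± 18.15 CPM in AX-MSU and 71.0 ± 6.00 CPM in AX-Malaka plants (SD, n = 3 each, log2FC 0.50, adjusted p = 0.0337 from edgeR). TPS9, a trehalose-phosphate synthase-like protein, averaged 35.5 ± 3.09 CPM in AX-MSU and 26.7 ± 0.847 CPM in AX-Malaka plants (SD, n = 3 each, log2FC 0.41, adjusted p = 0.0328 from edgeR). The calls of SEN5 and TPS9 were lost under 7 and 6 alternatives, among them total counts and leaving out AX-MSU replicate 2 or 3 or any AX-Malaka library. STP1, a sugar transporter, at 0.37, ASN1, an asparagine synthetase, at 0.23, and DIN10, at 0.13, did not pass.

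Genes with related annotation were higher as well, and they were chosen after their values were seen. SEN5 is 1 of 5 genes annotated with YGL and LRDR motifs. All 5 had a positive log2FC with a median of 0.34, and AT4G27450 was the other one called, with 21.5, 23.5 and 21.1 CPM in AX-MSU plants, against 14.0, 13.8 and 13.0 CPM in AX-Malaka plants (log2FC 0.69, adjusted p = 0.00182 from edgeR). Of the 5 BTB and TAZ domain proteins, BT1, BT2 and BT5 were called higher, at 0.58, 0.54 and 0.39, while BT4, at -0.97, and BT3, at -0.09, did not pass. Over all genes tested, 0.267% were called higher. BT2 had 88.7, 96.6 and 82.4 CPM in AX-MSU plants, against 56.1, 70.4 and 57.3 CPM in AX-Malaka plants. The calls of BT1 and BT2 were each lost under 4 alternatives, among them total counts and leaving out AX-MSU replicate 2 or AX-Malaka replicate 3. BT1 and BT2 are also the called members of the nitrate list, of whose 22 genes 17 were tested, with a median of 0.08. The nitrate reductases NIA1, at 0.20, and NIA2, at 0.08, and the transporter NRT1.1, at 0.05, did not pass. MCCA, a subunit of the methylcrotonyl-CoA carboxylase of leucine breakdown, had a log2FC of 0.50.

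**Figure D2:**
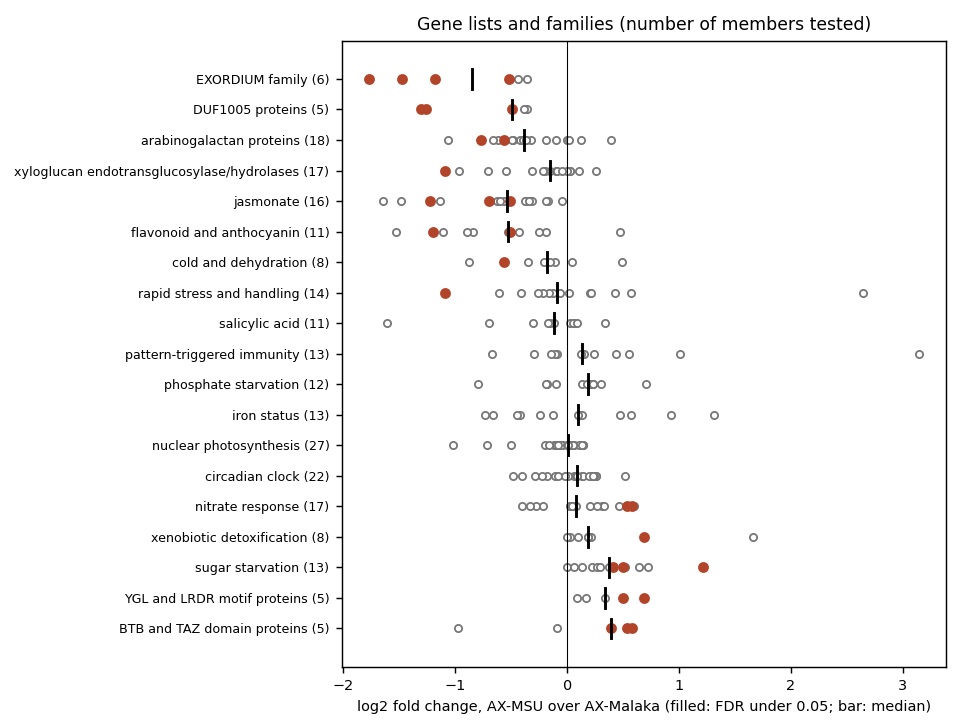
Log2FC of AX-MSU over AX-Malaka for each tested member of 13 gene lists and 6 families, with the number of tested members in brackets. Filled points had an FDR under 0.05, open points did not, and the black bar is the median, which is lowest for the EXORDIUM family (-0.85) and highest for BTB and TAZ domain proteins (0.39).

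The lists outside these groups showed few or no calls. Of 27 pathway lists, 20 had no called member. Among them were pattern-triggered immunity with 13 tested genes, salicylic acid with 11, phosphate starvation with 12, iron status with 13, nuclear photosynthesis with 27 and the circadian clock with 22, with medians of 0.14, -0.12, 0.18, 0.10, 0.0037 and 0.09. Some lists without a call leaned to 1 side as well. Negative were 6 of 6 zinc status, 10 of 14 cell division and 12 of 17 aliphatic glucosinolate genes, with medians of -0.41, -0.23 and -0.15. Positive were 6 of 7 cytokinin response genes, with a median of 0.34. FRK1, an immune marker induced by flagellin, had at most 0.141 CPM in AX-MSU and no count in AX-Malaka plants, so a difference between them was not detectable at this depth. Over all 27 lists the medians ran from -0.54 (jasmonate) to 0.38 (senescence), and of the 6 tested senescence genes none passed. At an unadjusted p under 0.05 there were 1653 genes in all. In the xenobiotic detoxification list CYP81D11, a cytochrome P450 induced by foreign compounds, was the 1 called gene of 8 tested, against 0.648% of all genes. It had 16.5, 21.9 and 21.4 CPM in AX-MSU plants, against 12.4, 13.0 and 11.6 CPM in AX-Malaka plants (log2FC 0.68, adjusted p = 0.0221 from edgeR), and HO libraries had 1.05 to 3.36 CPM. Its call was lost with total counts and without AX-MSU replicate 2 or 3 or any AX-Malaka library.

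Among the DEGs that were higher in AX-MSU plants, 4 had next to no counts in AX-Malaka plants. GRP9 (AT2G05440, chromosome 2, 1993038 to 1994177), a glycine-rich protein, had 54, 245 and 136 counts in the AX-MSU libraries and none in any AX-Malaka library. With the 3 AX-Malaka libraries together set to a floor of 3 counts it was at least 122-fold higher in AX-MSU plants (adjusted p = 2.62e-06 from edgeR). The other 6 libraries had between 55 and 265 counts of it, including 61, 63 and 55 in HO-Malaka plants, so the gene was undetected in AX-Malaka plants alone. TPS12 (AT4G13280), a terpene synthase that is unrelated to TPS9, had 6, 14 and 5 counts in AX-MSU libraries, and AT4G36430, a peroxidase, had 6, 17 and 3, and neither had a count in AX-Malaka libraries. They were at least 7.03-fold and 7.31-fold higher in AX-MSU plants by the same floor. MLP328 (AT2G01520), of the major latex protein family, had 37 counts in AX-MSU plants and 1 in AX-Malaka plants, a ratio of 31.2 after scaling, with a 95% interval (exact binomial, Clopper-Pearson, counting error only) of 5.26 to 1270. GRP9 kept its call under all 20 alternatives, while TPS12, MLP328 and AT4G36430 lost theirs without AX-MSU replicate 2 or any AX-Malaka library, and AT4G36430 under 11 of 18 in all. For TPS12 6.06% of the windows of 50 bases in its exons also stand elsewhere in the genome, and 3.79% for GRP9.

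The pattern was then looked for in the whole table, after it had been seen. Genes without a count in AX-Malaka libraries but with at least 1 in each of the other 9 numbered 21, of which 5 had 50 or more counts over those 9. Genes missing in this way from AX-MSU libraries numbered 4, and there were none for HO-MSU or HO-Malaka libraries. AX-Malaka also had the fewest counts in all, with 37715974, against 42738000 in AX-MSU, 54664965 in HO-MSU and 42555333 in HO-Malaka libraries, and the part of depth in this was not tested. GRP9 had 1016 counts in the other 9 libraries, and the next gene of the 21, TPS12, had 91.

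**Figure D3:**
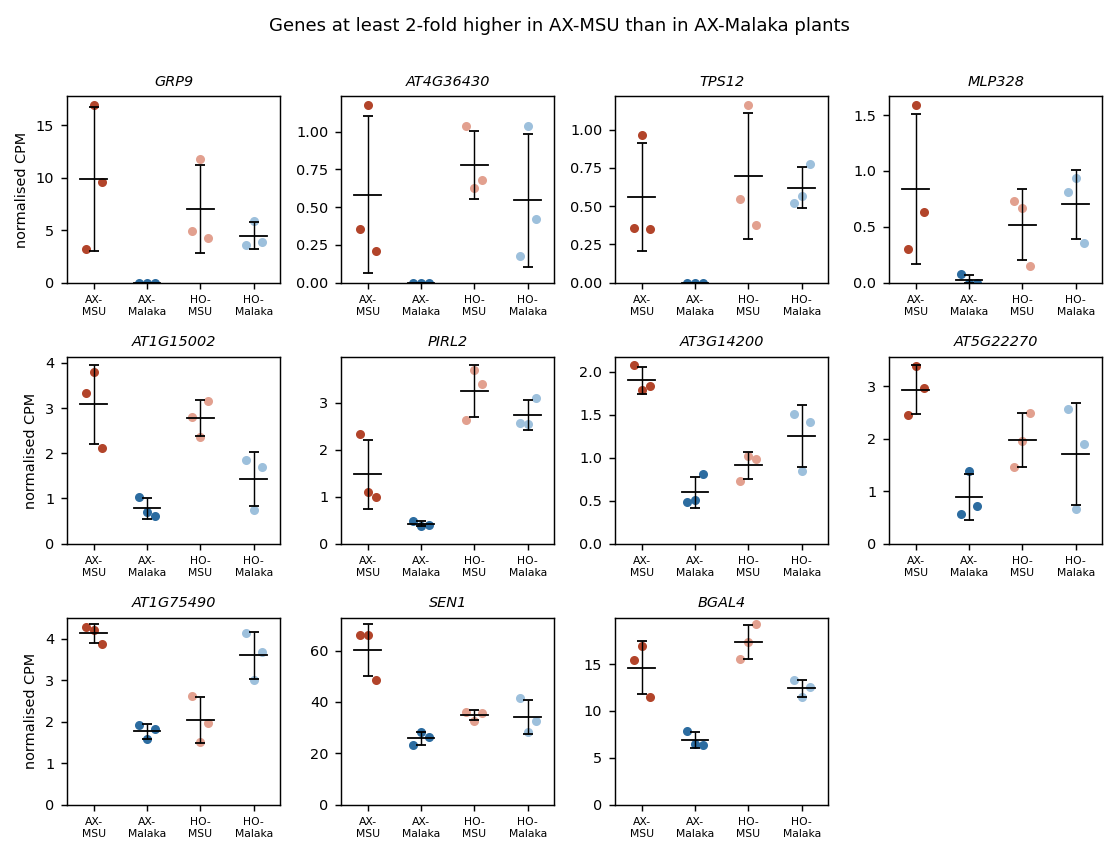
Normalised CPM of the 11 genes that were at least 2-fold higher in AX-MSU than in AX-Malaka plants, for each library of the 4 groups. Points are libraries, horizontal bars group means and error bars SD (n = 3). GRP9, AT4G36430 and TPS12 had no count in AX-Malaka plants and counts in all of the other 9 libraries, and SEN1 was highest in AX-MSU plants.

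The other DEGs that were higher had counts in every library. BGAL4, a beta-galactosidase that acts on wall galactans, had 15.4, 16.9 and 11.5 CPM in AX-MSU plants, against 7.91, 6.42 and 6.37 CPM in AX-Malaka plants (log2FC 1.08, standard error 0.15, adjusted p = 8.78e-05 from edgeR). It kept its call under all 20 alternatives, although 909 of the 3812 bases in its exons also lie in AT5G56880, which runs in the opposite direction. AT1G75490, of the same transcription factor class as DREB26, had 4.29, 4.21 and 3.88 CPM in AX-MSU plants, against 1.92, 1.57 and 1.82 CPM in AX-Malaka plants (log2FC 1.23, adjusted p = 0.0157 from edgeR). AT5G22270, AT3G14200, which has a DnaJ chaperone domain, PIRL2, a leucine-rich repeat protein, and the non-coding RNA AT1G15002 had a log2FC of 1.66, 1.70, 1.82 and 1.97, at means of 1.47 to 3.08 CPM in AX-MSU and 0.420 to 0.883 CPM in AX-Malaka plants. Of AT1G15002, 1569 of 2056 exonic bases overlap other genes, so its counts cannot be told apart from theirs. The calls of AT1G75490, AT5G22270, AT3G14200 and PIRL2 were lost under 6, 6, 9 and 8 alternatives, and that of AT1G15002 without AX-MSU replicate 2 (adjusted p = 0.0566).

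The HO libraries allowed the same genes to be looked up with live communities. They entered the comparison of AX plants only through the filter on low counts, the scaling and the estimate of the spread. Between HO-MSU and HO-Malaka plants 51 genes had an FDR under 0.05, 0.290% of those tested. Of the 114 genes called in AX plants, 62 (54.4%) had the same sign in HO plants, against 52.5% of all genes tested. The 67 genes lower in AX-MSU plants had a median log2FC of -0.66 there and of -0.02 in HO plants, and the 47 higher ones had 0.58 and 0.03. In HO plants 48 of the 67 and 36 of the 47 had a |log2FC| under 0.25. Across all genes tested the log2FC of AX plants was set against that of HO plants, with r = 0.0395 (Pearson) and rho = 0.0464 (Spearman), given as a description across genes, which are not independent replicates.

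Among the 114, 8 were also called between HO-MSU and HO-Malaka plants. PHI-1 (log2FC -0.92 in HO plants), VSP2 (-0.94), TT4 (-0.70), AT1G14250 (-0.61), a nucleoside phosphatase, and MTO3 (-0.40), an S-adenosylmethionine synthetase, were lower with MSU in both. ERD10 (0.87), ERD7 (1.31) and AT2G47440 (0.45) were higher in HO-MSU than in HO-Malaka plants but lower in AX-MSU than in AX-Malaka plants. ERD10, a dehydrin that accumulates on cold and drying, had 19.3, 20.9 and 22.1 CPM in AX-MSU plants, against 29.1, 30.6 and 32.8 CPM in AX-Malaka plants. With live communities it had 62.1, 70.8 and 56.9 CPM in HO-MSU plants, against 24.7, 41.6 and 38.3 CPM in HO-Malaka plants. ERD7, another gene named for its early response to dehydration, averaged 3.66 ± 0.917 CPM in AX-MSU and 6.95 ± 1.00 CPM in AX-Malaka plants, and 29.5 ± 4.29 CPM in HO-MSU and 12.2 ± 4.01 CPM in HO-Malaka plants (SD, n = 3 each). ERD10 was the 1 called gene of 8 tested on the cold and dehydration list in AX plants, against 0.648% of all genes. Its log2FC there was -0.57 (adjusted p = 0.0391 from edgeR), and it lost that call with total counts, without any AX library and without HO-MSU replicate 1.

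**Figure D4:**
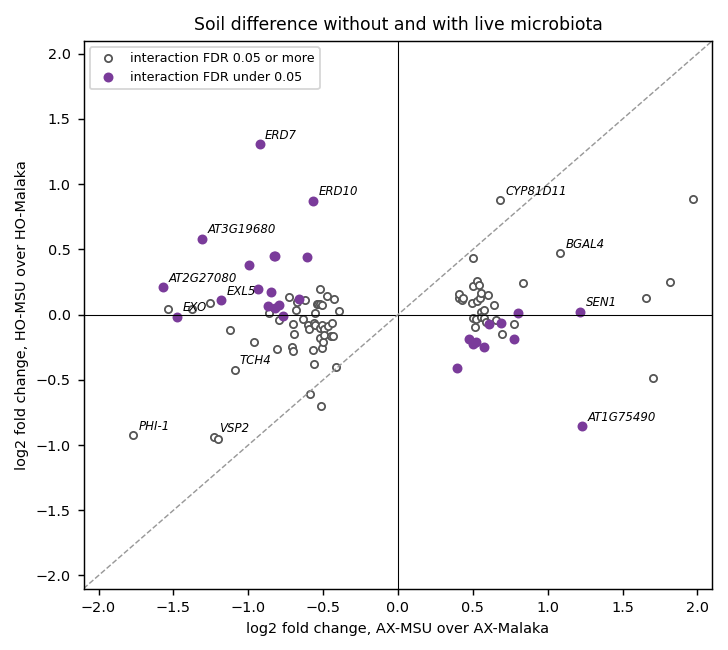
Log2FC of HO-MSU over HO-Malaka (vertical axis) against log2FC of AX-MSU over AX-Malaka (horizontal axis) for the 110 called genes with a |log2FC| under 3 in AX plants. Filled points had an interaction FDR under 0.05, the dashed line marks equal differences, and most points lie near 0 on the vertical axis, as the medians of -0.02 and 0.03 in HO plants show.

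The difference between the soils was itself compared between HO and AX plants as an interaction. It passed at 49 genes, 0.279% of those tested, and at 29 of the 114. The interaction contains the AX libraries by which the 114 were called, so this number is not independent of that choice. It included AT3G19680 (interaction log2FC 1.89, adjusted p = 8.60e-06 from edgeR), AT2G27080 (1.78), EXO (1.46), EXL5 (1.29), SEN1 (-1.20) and GRP9. It did not pass at PHI-1 (0.84, adjusted p = 0.3), TCH4 (0.67, adjusted p = 0.187), VSP2 (0.29, adjusted p = 0.845), LOX2 (0.63, adjusted p = 0.128) or DFR (0.25, adjusted p = 0.932), which does not show that these respond alike. The 51 genes called in HO plants became 223 without HO-Malaka replicate 2, 24, 25 and 16 without HO-MSU replicate 1, 2 or 3, 24 without HO-Malaka replicate 3, and 33 and 32 without AX-Malaka replicate 2 or 3. The 49 genes of the interaction became 191 without HO-Malaka replicate 2, 28 without HO-Malaka replicate 3, 21, 31 and 26 without HO-MSU replicate 1, 2 or 3, 30 and 15 without AX-MSU replicate 1 or 2, and 27 and 19 without AX-Malaka replicate 2 or 3.

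Which group stood apart was counted over the 12 libraries. Of the 114 genes, 34 had all AX-MSU libraries outside the range of the other 9, against 2.14% of all genes tested, and 63 had all AX-Malaka libraries outside it, against 3.79% of all. Since the 114 were called for the distance between these groups, nothing is read from the excess over all genes. Among the 67 genes lower in AX-MSU plants, AX-Malaka lay above the other 9 at 45 and AX-MSU below the other 9 at 15. Among the 47 genes higher in AX-MSU plants, the numbers were close, with AX-MSU above at 19 and AX-Malaka below at 18. The first group includes EXO, EXL5, EXL3, TCH4, LRX3, THE1, LOX2 and VSP2, the second AT2G27080, WRKY18 and MYBR1, the third SEN1, BT2, BT5 and NAC083, and the fourth GRP9, BGAL4 and PIRL2. AT3G19680 and LGT9, a glycosyltransferase, belong to the first 2 groups at once, and AT4G27450 and J8, a DnaJ-domain protein, to the other 2.

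**Figure D5:**
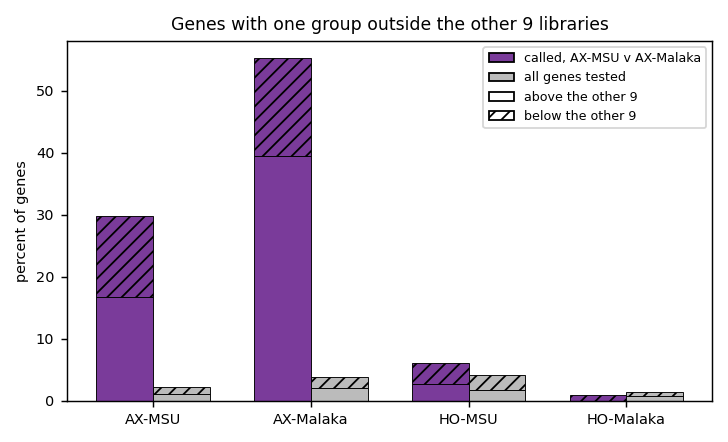
Percent of genes at which all 3 libraries of a group lie above (plain) or below (hatched) the other 9 libraries, for the 114 genes called between AX-MSU and AX-Malaka plants (left bar of each pair) and for all 17588 genes tested (right bar). AX-Malaka lies outside at 63 of the 114 and AX-MSU at 34.

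On the first principal component of the 6 AX libraries, which held 31.0% of the variance, the AX-MSU libraries lay at 13.3, 9.45 and 2.60 and the AX-Malaka libraries at -5.41, -8.52 and -11.45 (two-sided exact permutation test, p = 0.1, the smallest that 3 against 3 libraries allow). The groups did not overlap on it. With libraries scaled to total counts alone AX-Malaka replicate 1, at 4.08, lay between AX-MSU libraries (exact permutation test, p = 0.2). Of the 114 called genes, 37 share some exonic bases with another gene. The kit marks strand, but whether strand was used in counting is not given in the sources used here, so reads of overlapping genes on opposite strands may not have been told apart.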

How the data were processed

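RNA of 12 pooled-rosette libraries in 4 groups of 3 had been extracted with a column kit and sequenced as stranded single-end reads of 50 bases. The authors trimmed reads with Trimmomatic (version 0.39 in the submitters' processing notes), aligned them to TAIR10 with STAR and deposited raw counts per gene from featureCounts. The gene annotation and the strand and multi-mapping settings of counting are not given in the sources used here.

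The deposited counts were tested with edgeR 4.0.16 in R 4.3.3. Genes were kept by filterByExpr (minimum count 10, total 15), leaving 17588 of 33610. Libraries were scaled by TMM, 1 model with a mean for each of the 4 groups was fitted, and contrasts were taken for AX-MSU minus AX-Malaka, HO-MSU minus HO-Malaka and the second minus the first (interaction). P-values were adjusted over all genes tested. CPM are counts scaled to 1000000 of the TMM-scaled library size, organellar and ribosomal RNA counts included. Every row names a gene, and 0 columns of sample values were left unused. The depth of 10211008 to 22710086 counts puts 3 counts at 0.134 to 0.303 CPM in a library, and floors and intervals cover counting error only. The fit was tested on simulated data with changes larger than those of most called genes, planted only in genes of higher mean count. That test therefore does not cover the smaller differences or the low counts among the called genes.

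Principal components used log2(CPM + 4). The alternatives were DESeq2 1.42.0, RLE factors, total counts, nuclear genes without ribosomal RNA, other filters on low counts, the fold threshold inside the model, the 6 libraries alone, a replicate block and leaving out each of the 12 libraries. Exon overlap, windows of 50 bases and promoters of 250 bases came from RefSeq TAIR10.1, which has an entry for 28932 of the 33610 identifiers.

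Genes were named by rule: DEGs whose AX libraries did not overlap, up to 12 in each direction, and the 6 genes with the smallest p. The rule also took called members of the gene lists and the 3 DEGs with the smallest interaction p. The comparison, lists and rule were chosen with earlier results of these data known. The 6 families, and genes named as picked out after their values were seen, fall outside the rule. 1 promoter sequence is not reported here.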

Additional observations from a re-analysis of the deposited data

Results flagged for a closer look

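The difference between the soils differed between HO and AX plants, by the interaction test of edgeR, at 10 of the 32 genes named by rule. The interaction also passed at called genes outside the rule, among them ERD7 (interaction log2FC 2.23) and AT2G47440 (1.28). The interaction log2FC is the HO difference minus the AX difference, so it is positive where the HO difference was the higher of the pair. It was 1.89 at AT3G19680, 1.78 at AT2G27080, 1.46 at EXO and 1.29 at EXL5, whose AX-MSU libraries lay below AX-Malaka while HO plants had a log2FC of 0.58, 0.21, -0.02 and 0.11. It was 1.44 at ERD10, which was lower in AX-MSU than in AX-Malaka plants and higher in HO-MSU than in HO-Malaka plants. It was -1.20 at SEN1, -0.722 at AT3G15450 (SEN5), -0.821 at BT1 and -2.08 at AT1G75490, which were higher in AX-MSU than in AX-Malaka plants while HO plants had a log2FC of 0.02, -0.22, -0.24 and -0.85. At GRP9 the fitted value was -9.45, which depends on the prior count because no AX-Malaka library had a count. These genes had all been called on the AX libraries that enter this test.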

How the results depend on the processing

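No named gene changed direction under any alternative, and of 32 named genes 10 kept their call under all 20 alternatives other than the fold tested in the model, which kept GRP9 alone. DESeq2 gave an adjusted p for 22 of the 32 and kept all 22. Total counts kept 17, with a median log2FC of all genes of 0.064 in AX plants, against 0.0022. The numbers of DEGs (11 higher, 12 lower) became 4 higher with DESeq2, 6 higher with total counts, 24 and 28 with no filter, 1 and 0 with the fold tested in the model, and ran from 2 to 14 and from 6 to 17 on leaving out 1 library. The numbers called (47 higher, 67 lower) became 7 and 16 with total counts, 108 and 150 with no filter and 83 and 129 with the 6 libraries alone, and ran from 7 to 79 and from 18 to 111 on leaving out 1 library. The 51 genes between HO groups became 17 with total counts, 189 with no filter and 18 with 6 libraries alone, and ran from 16 to 223 on leaving out 1 library, and the 49 of the interaction became 14 and 181 with total counts and no filter and ran from 15 to 191. Causes were not tested. Deviations of same-numbered libraries from their group means were weakly correlated (r of -0.000838, -0.00707 and 0.0141 in AX and 0.0591, 0.1 and -0.0101 in HO plants). Some libraries correlated best with their own number and others did not. With 3 libraries in a group, these values cannot decide whether the numbers pair samples. A replicate block gave 80 higher and 112 lower in AX plants, 116 in HO plants and 104 for the interaction. Genes under about 0.3 CPM in a library lie near 3 counts, where differences are not detectable.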

Other observations

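Genes undetected in a single group, outside those described, were few in counts. Of the 21 genes without a count in AX-Malaka libraries and with counts in all of the other 9, OSM34, an osmotin-like protein, had 49 counts over those 9, WRKY72, a transcription factor, had 43, and RALF1, a peptide hormone precursor, had 35. AT5G59680 had 76 and AT1G65690 had 61. Of the 4 genes missing in this way from AX-MSU libraries, AT1G51620 had the most counts, 57. These were chosen after their values were seen, and most were too low to be tested.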
